A study of Drosophila melanogaster with 2 samples.

Results

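The genes described here encode the nuclear-encoded parts of the mitochondrial respiratory chain and ATP synthase of Drosophila melanogaster. They were selected by a rule on gene symbols, which was set with earlier results of these data known. It takes protein-coding genes of the Ensembl annotation on nuclear chromosomes whose symbol starts with ND- (complex I), Sdh (complex II), UQCR- (complex III), COX (complex IV) or ATPsyn (ATP synthase). The rule found 88 of 13968 protein-coding genes. Of these, 63 were canonical subunits, 24 were duplicates, whose symbol ends in L or in L and a digit, and 1, Sdhaf3, was an assembly factor of complex II. ND-MNLL was kept with the canonical subunits, since those letters are residues of the protein itself.

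The measurements are peak lists of chromatin immunoprecipitation with sequencing (ChIP-seq) for Crc, the fly counterpart of the stress-response factor ATF4. The strain, crc-MiMIC-GFP, carries an exon for enhanced GFP inside an intron of crc, so that the gene makes a Crc-eGFP fusion protein, which was precipitated with an antibody against GFP. Whole embryos of mixed sex, collected over 0 to 24 h and pooled, gave 1 group of 2 biological replicates of this 1 strain. All stages and tissues of that interval are mixed, the fusion is made only by crc transcripts that include the inserted exon, and no library of untagged embryos was analysed here. The authors' dm6 lists held 30000 candidate regions for each replicate and 24369 for both replicates pooled. The pooled list is labelled as peaks and background, so a candidate taken alone may not be a site bound by Crc. A further list, labelled as thresholded for reproducibility, held the 2420 pooled candidates with the highest signal, called optimal peaks. The lowest optimal signal was 63.98, and the number of reads behind the peaks is not given in the sources used.

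Complexes I to IV pass electrons from NADH and succinate to oxygen and, except for complex II, pump protons across the inner mitochondrial membrane, and ATP synthase uses the proton gradient to make ATP. Most subunits are encoded in the nucleus, and many of them have in flies a retained gene copy that is used mainly in the testis. ATF4 is known in mammals as the factor that carries the response to mitochondrial stress into the nucleus, where it induces genes of amino acid and one-carbon supply, and it binds the C/EBP-ATF response element (CARE).

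At the strongest optimal peaks of these genes the summit lay in reach of a second gene's start as well. Sequences are shown for 3 of the strongest bound genes, those whose summit window held at most 30 exon bases and could be shown, so that a reader can see what DNA lies under the summit. Each window is 151 bases of the dm6 genome, on the strand of the named subunit gene, and capitals mark the 11 bases centred on the authors' summit. The window of ND-ASHI is X:6679296-6679446 on the reverse strand, that of ND-51 is 2L:6062778-6062928 on the reverse strand, and that of COX5A is 3R:11819406-11819556 on the forward strand. None of the elements named further on occurred in these windows, and their GC content was 37.7% for ND-ASHI and 29.1% for ND-51 and for COX5A.
ND-ASHI: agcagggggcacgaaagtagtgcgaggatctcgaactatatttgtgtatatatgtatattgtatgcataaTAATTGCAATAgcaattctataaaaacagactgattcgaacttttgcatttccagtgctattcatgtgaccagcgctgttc
ND-51: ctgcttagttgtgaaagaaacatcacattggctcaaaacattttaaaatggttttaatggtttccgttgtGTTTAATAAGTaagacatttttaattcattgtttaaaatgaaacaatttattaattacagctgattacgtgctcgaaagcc
COX5A: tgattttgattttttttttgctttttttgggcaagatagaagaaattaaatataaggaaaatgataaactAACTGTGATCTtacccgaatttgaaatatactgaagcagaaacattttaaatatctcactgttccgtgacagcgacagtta

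Crc candidates were frequent at the starts of canonical subunit genes, but few of them were strong enough to be optimal peaks. A gene was counted as bound when an optimal summit was no more than 500 bp from the start of any of its annotated transcripts. By this count 9 of the 63 canonical subunits were bound, 14.3%, beside 11.5% of all protein-coding genes. A weaker candidate of the pooled reads counted as well for the wider measure, which 46 of the 63 met, 73.0%, beside 45.5% of all protein-coding genes. Among genes with a candidate, 9 of 46 subunits were bound, 19.6%, where the background was 25.3%. Over all 88 members, duplicates included, 9 were bound, 10.2%, and 49 had a candidate, 55.7%. The share of bound subunits was thus close to the background, while the share with any candidate was above it. Since the pooled list includes background regions, the second share is not a measure of genes bound by Crc.

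Each replicate read alone also had more candidates at the subunits than at other genes. In replicate 1, 41 canonical subunits had a candidate within 500 bp, 65.1% beside 44.5% of all genes, and in replicate 2 there were 52, 82.5% beside 51.5%. Both replicates had a candidate at 37 of the 63, 58.7%, beside 34.7% of all genes. Such a count does not require the same site in both. At ND-B15, for example, the summit was downstream of a start in replicate 1 and upstream in replicate 2. Taking the 2420 strongest candidates of 1 replicate in place of the optimal list, 11 subunits were called from replicate 1, 17.5% beside 11.8% of all genes, and 9 from replicate 2, 14.3% beside 11.5%. The 9 of replicate 2 were the 9 bound subunits, and replicate 1 added ND-20 and ND-SGDH to them.

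Signals of the subunits were spread over the range of other genes. The pooled signal, the authors' own score for a peak with no stated normalization, had a median of 35.1 over the 46 subunits with a candidate and of 37.8 over the 6352 genes with one. By quartiles of the signal over all those genes, 12 subunits lay in the lowest quartile, 14 and 11 in the middle ones and 9 in the highest. The highest signal of a subunit was 177.1, whereas the highest of any gene was 1273.8.

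Complex I, which oxidises NADH, is the largest complex and had the most bound subunits by number. Of its 34 canonical subunits 23 had a candidate, 67.6% beside 45.5% of all genes, and 5 were bound, 14.7% beside 11.5%, a share near the background. The 7 nuclear-encoded core subunits, which carry the flavin and the iron-sulphur clusters or form the quinone site, had 4 candidates and 2 bound genes, and the 27 accessory subunits, which surround the core, had 19 and 3, counts too small to set apart from that background.

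ND-ASHI (FBgn0029888, X:6677262-6679118), which encodes an accessory subunit of the membrane arm, had a pooled signal of 177.1, and its signals in replicates 1 and 2 were 56.3 and 126.3. It ranked 380 among the pooled candidates, 658 in replicate 1 and 259 in replicate 2. The summit lay 253 bp upstream of the start of ND-ASHI and 269 bp from the start of Fum1 (FBgn0286222), a fumarase gene of the tricarboxylic acid (TCA) cycle on the other strand. The largest difference in rank between the replicates among the 8 bound subunits matched in both, by a factor of 2.54, was at this peak.

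ND-MWFE (FBgn0085468, 2R:13158666-13160190), another accessory membrane-arm subunit, had almost the same pooled signal, 177.1, with 63.5 in replicate 1 and 110.05 in replicate 2. Its summit, 172 bp upstream of the ND-MWFE start, was closer to that of TppII (FBgn0020370), a peptidase gene on the other strand, at 49 bp. ND-51 (FBgn0031771, 2L:6060842-6062757), which encodes the subunit that binds the flavin and takes electrons from NADH, had a pooled signal of 132.2, with 59.2 and 70.5 in the replicates. The ND-51 summit lay 96 bp upstream of its start and 136 bp from that of CG13994 (FBgn0031772).

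ND-42 (FBgn0019957, 3R:22027709-22029393), an accessory subunit of the membrane arm, had 100.3 in the pooled list, 52.8 in replicate 1 and 47.3 in replicate 2. It was the single bound subunit with the higher signal in replicate 1, and its ranks there and in replicate 2, 732 and 1720, differed by a factor of 2.35. The summit lay 288 bp upstream of ND-42 but 59 bp from the start of Cchl (FBgn0038925), the gene of the lyase that attaches haem to cytochrome c. ND-24 (FBgn0030853, X:17632089-17633509), the partner of ND-51 in NADH oxidation, had 84.5, with 33.6 and 50.4 in the replicates, and a summit 58 bp downstream of its start and 100 bp from that of corolla (FBgn0267967), a gene of meiotic chromosome pairing. Both genes of this pair of NADH-oxidising subunits were thus bound, whereas ND-75, the remaining core gene of that module, had no candidate in any of the lists.

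Complex IV, cytochrome c oxidase, had the largest share of bound subunits, 3 of 8, 37.5% beside 11.5% of all genes, and the highest median signal over subunits with a candidate, 69.8 over 6 genes. The other medians lay between 30.1 for complex II and 35.1 for ATP synthase. When each summit counted only for the nearest start, 1 of the 8 was bound, beside 8.49% of all genes. With so few genes in each complex this order is a description, and no test of it was made. COX5A (FBgn0019624, 3R:11819359-11820299), a subunit on the matrix side, had a pooled signal of 99.6, with 36.6 in replicate 1 and 80.4 in replicate 2, ranks of 1455 and 683. The summit lay inside the gene, downstream of its outermost start. It was 118 bp upstream of the closest COX5A start and 61 bp from the start of glo (FBgn0259139), which encodes an RNA-binding protein. COX5B (FBgn0031830, 2L:6557800-6559308), also on the matrix side, had 97.1, with 49.2 and 52.7, and its summit lay 302 bp upstream, 4 bp from the start of IFT52 (FBgn0031829), a gene of intraflagellar transport. The third was COX6B (FBgn0031066, X:19740537-19744335), a subunit facing the intermembrane space, with 89.0, and 40.0 and 47.9 in the replicates. Its summit was 42 bp from its start, the same distance from the start of CG18809 (FBgn0042132) on the same strand, and 54 bp from those of CG33932 and Rpp20. The other complex IV subunits with a candidate, COX7B (50.6), COX8 (47.5) and COX7A (24.5), were not bound, and COX4 had no candidate in any list.

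ATP synthase had candidates at 10 of its 11 canonical subunits, 90.9% beside 45.5% of all genes, and 1 bound gene, 9.09% beside 11.5%, again near the background. That was ATPsynE (FBgn0038224, 3R:14326947-14327735), which encodes subunit e of the membrane part, where the enzyme forms dimers. It had a pooled signal of 66.3, the lowest of the bound subunits, and 30.5 in replicate 1 and 41.6 in replicate 2. No replicate 1 summit lay within 100 bp of the optimal one, although a replicate 1 candidate lay within 500 bp of a start. Weaker candidates lay at ATPsynbeta, which carries the catalytic sites (46.7), ATPsynC, the ring subunit (40.9), ATPsynO of the peripheral stalk (34.2) and ATPsyngamma, the central shaft (24.2). The alpha subunit, blw, is not named by this rule and is described with the older-named subunits. ATPsyndelta had no candidate in any list.

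Neither complex II nor complex III had a bound subunit. In complex II, succinate dehydrogenase, the membrane anchors SdhC and SdhD had pooled candidates of 38.5 and 30.1, and the flavoprotein SdhA had one of 27.3. SdhC had 19.5 in replicate 1 and 18.4 in replicate 2, while SdhD (20.4) and SdhA (21.2) had a candidate in replicate 2 only. SdhB, the iron-sulphur subunit, had no pooled candidate and weak ones of 12.5 and 10.9 in the replicates, and the assembly factor Sdhaf3 had a pooled candidate of 27.5. In complex III, the cytochrome bc1 complex, UQCR-14 had 36.5, UQCR-6.4 34.2, UQCR-11 28.5 and the core protein gene UQCR-C1 26.8. In the replicates UQCR-14 had 11.4 and 15.8 and UQCR-11 had 10.8 and 14.0, while UQCR-6.4 (24.25) and UQCR-C1 (24.4) had a candidate in replicate 2 only. UQCR-C2, the other core protein gene, and UQCR-Q had no pooled candidate, and UQCR-C2 had a weak one of 12.6 in replicate 2. With 4 and 6 canonical subunits, and 11.5% of all genes bound, a count of 0 in complexes II and III is close to that background.

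**Figure D1:**
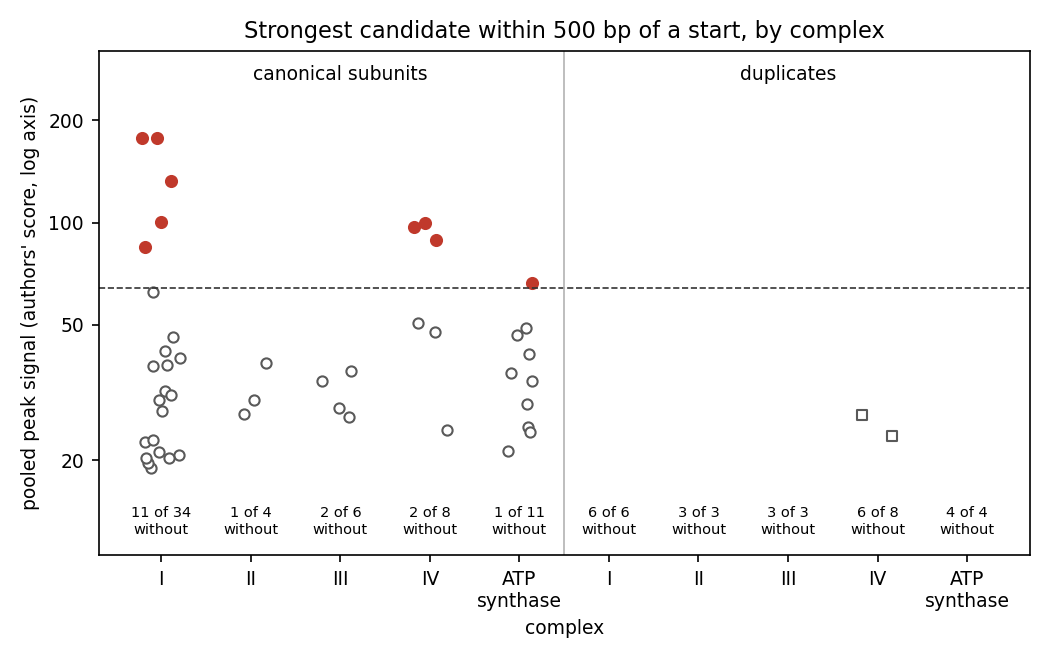
Pooled peak signal (log axis) of the strongest candidate within 500 bp of a start for each gene with one, by complex, for canonical subunits (circles) and duplicates (squares). Filled symbols are bound genes, the dashed line is the lowest optimal signal of 63.98, and the text along the bottom gives the genes without a pooled candidate. The 9 bound genes belong to complex I, complex IV and ATP synthase, and 22 of the 24 duplicates have no pooled candidate.

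Of the bound subunits, ATPsynE (66.3), ND-24 (84.5) and COX6B (89.0) came nearest to the lowest optimal signal, and only ATPsynE was close to it. The nearest below it were ND-SGDH (62.6), COX7B (50.6) and ATPsynF (48.9). ND-SGDH, an accessory complex I subunit, missed it narrowly with ranks of 2502 in the pooled list, 1490 in replicate 1 and 3233 in replicate 2. ND-20, a core subunit at the quinone site, ranked 2161 in replicate 1 and had no candidate within 500 bp in replicate 2.

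Agreement between the replicates at the bound subunits was close to that at other bound promoters. Optimal peaks were the 2420 strongest candidates of the reads pooled from these same replicates. High agreement at both was thus largely set by that choice, although a summit in each replicate was not required. For 8 of the 9 each replicate had a candidate summit within 100 bp of the optimal one, 88.9%, beside 94.6% of the 1142 optimal peaks that were the strongest at a gene start. Of the 46 strongest candidates at subunits, 27 were matched in both replicates, 58.7%, beside 51.7% of the 4981 strongest candidates at a gene start. Another 7 were matched only in replicate 1, 9 only in replicate 2 and 3 in neither. The higher signal was in replicate 2 at 7 of the 8 matched peaks, but each list has its own scale. By rank, 4 of the 8 stood higher in replicate 1 and 4 in replicate 2.

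**Figure D2:**
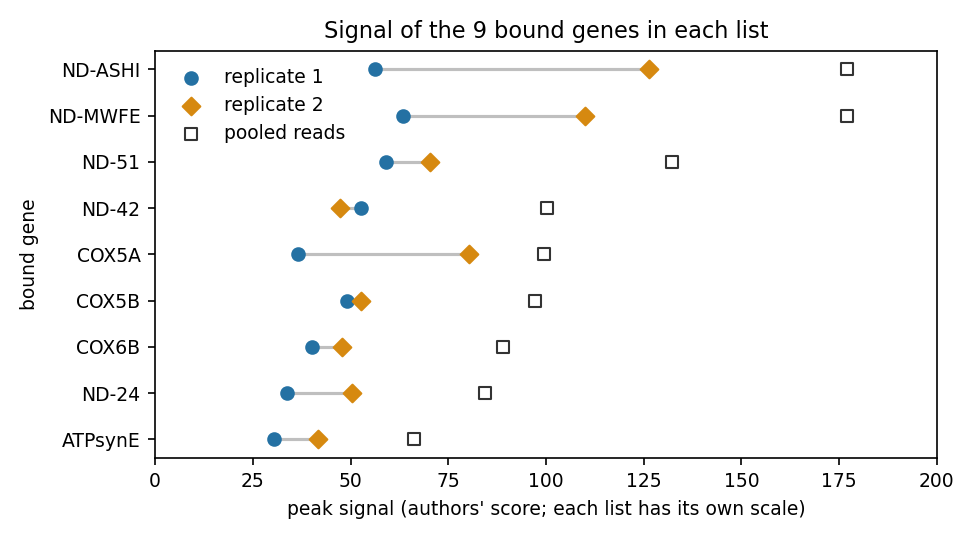
Peak signal of the 9 bound subunit genes in replicate 1 (circles), replicate 2 (diamonds) and the pooled reads (squares), each value being the strongest peak of that list within 500 bp of a start. Each list has its own scale, so the gaps between symbols are not a measure of change. Replicate 2 lies to the right at each gene other than ND-42.

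All 9 bound subunits shared their summit with another gene. At each of them the start of a further protein-coding gene on the opposite strand lay within 500 bp of the summit, and at 8 of the 9 it was the single other gene in reach. In 4 of the 9, ND-MWFE, ND-42, COX5A and COX5B, the partner's start was the closer one. Such a summit cannot be assigned to 1 gene of the pair from these data, and when each counted only for the nearest start, 5 subunits were bound in place of 9, 3 of them in complex I and 1 in complex IV. Over all bound genes 56.4% shared their summit with another gene, and over all genes with a candidate 44.2%.

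Subunits with and without a second start in reach were then set side by side over all candidates. Of the 46 canonical subunits with a candidate, 29 had another start in reach of the summit. Their pooled signals ran from 19.0 to 177.1 with a median of 46.0, and 9 of the 29 were bound, 31.0%. The other 17 had signals from 19.7 to 42.0, the highest at ND-20, with a median of 30.1, and 0 of the 17 were bound. Without the 9 bound genes, the 20 weaker candidates with another start in reach had a median of 31.8 and ran from 19.0 to 62.6. Leaving out the bound genes took the highest values from this group alone, so the medians cannot then be compared for level. Over all genes with a candidate, 32.3% of those with another start in reach were bound and 19.7% of those without, with medians of 47.0 and 32.7. Among all genes that were not bound, the medians were 34.8 and 28.6. The share bound was therefore also higher with a second start in reach over all genes, and whether it was stronger in the subunits was not tested. Paired starts are common among the subunits without regard to peaks: 35 of the 63 canonical subunits, 55.6%, had another gene's start within 500 bp of their outermost start, beside 30.2% of all protein-coding genes and 3 of the 24 duplicates.

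**Figure D3:**
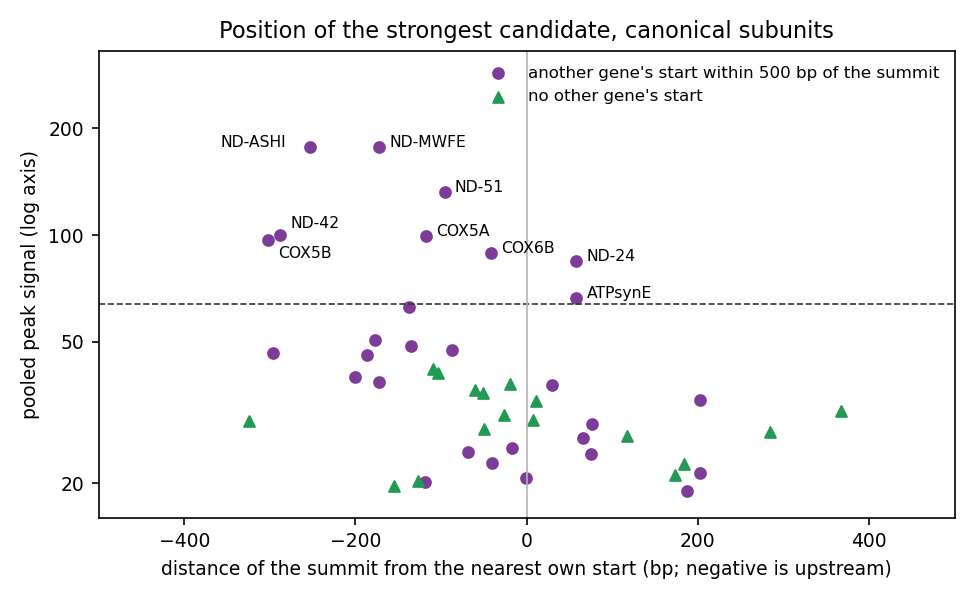
Pooled peak signal (log axis) against the distance in bp of the summit from the nearest start of the subunit gene, for the 46 canonical subunits with a candidate. Circles have another gene's start within 500 bp of the summit and triangles do not, the dashed line is the lowest optimal signal of 63.98, and the 9 bound genes, which are named, are all circles.

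Most summits lay upstream of the closest start of the subunit gene, which at COX5A was not the outermost one. This held for 30 of the 46 candidates, 65.2%, beside 70.6% of all genes with a candidate, and for 7 of the 9 bound subunits, beside 86.2% of all bound genes. The median distance from the start was 117.5 bp for the candidates at subunits and 153 bp for those at all genes. Of the 79 members that were not bound, 3 had an optimal summit within 1000 bp of a start and thus just out of reach, namely SdhA at 827 bp, ND-SGDH at 831 bp and ND-39 at 864 bp.

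By chromosome arm, 5 of 11 canonical subunits on 2R had a candidate, 45.5%, beside 45.6% of all genes on that arm, and 7 of 13 on 3L, 53.8% beside 46.5%. On 2L it was 11 of 12, 91.7% beside 43.1%, on 3R 12 of 13, 92.3% beside 46.7%, and on X 9 of 12, beside 45.1%. The X carried 3 of the 9 bound subunits, 25.0% of its 12 beside 10.6% of all genes on X, and 3L carried 0 of its 13, beside 11.9%. These counts are small and were not tested.

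The duplicates were almost free of pooled candidates. Of 24 duplicate genes, 2 had a pooled candidate, 8.33% beside 45.5% of all protein-coding genes, and 0 were bound, where 11.5% of all genes were. COX7AL2 had a pooled signal of 27.2, with 13.6 in replicate 1 and 14.2 in replicate 2, and its summit was closer to the start of CG10874. COX7AL had a pooled signal of 23.6 and no candidate in either replicate. In replicate 1 alone 7 duplicates had a candidate, 29.2% beside 44.5% of all genes, and in replicate 2 alone 4 had one, 16.7% beside 51.5%. One duplicate, COX7AL2, had a candidate in both, 4.17% beside 34.7% of all genes. No candidate in any list was found for 13 of the 24, among them SdhAL, SdhBL and SdhCL. That was 54.2%, beside 38.1% of all protein-coding genes. Replicate signals of the duplicates did not exceed 16.4, the value of ND-20L in replicate 1. In contrast, 7 of the 63 canonical subunits, 11.1%, had no candidate in any list: ND-75, ND-B12, ND-B16.6, ND-MLRQ, UQCR-Q, COX4 and ATPsyndelta. Several others had no pooled candidate but a weak one in 1 replicate, as did COX7C (14.2), ND-13B (13.7), ND-19 (14.6), ND-23 (9.45) and ND-ACP (9.92) in replicate 2 and ND-30 (14.5) in replicate 1. The duplicates also differed from the subunits in having fewer paired starts, as given above, and the part of that difference in their lack of candidates was not tested.

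Other genes of mitochondrial respiration, listed by function, showed the same mixture. The rule by symbol leaves out subunits with older names, and of 9 such genes 6 had a candidate and 2 were bound. These were Cyt-c-d, the testis form of cytochrome c, with 163.6 and a summit 387 bp downstream of its start that is shared with CG31808, and blw, the alpha subunit of ATP synthase, with 150.4 in the pooled list and 49.9 and 99.7 in the replicates. The blw summit, 142 bp upstream, had no other start in reach. Cyt-c-p, the general form of cytochrome c, had a candidate of 57.6, and sun, levy and cype had none in the pooled list.

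The strongest single peak of the 4 lists was at an assembly factor. Of 6 found in the annotation, 2 were bound: CIA30, a complex I assembly factor, with 498.0 (207.4 in replicate 1 and 292.8 in replicate 2, ranks of 33 and 39), and Ttc19, a complex III factor, with 173.5 (83.9 and 90.0). Both summits were shared, with CG7601 and with Acn. Surf1, Scox and sicily had no pooled candidate. The enzymes of the TCA cycle and pyruvate dehydrogenase, which supply the chain with electrons, had 10 candidates and 4 bound genes among 13: Fum1, whose peak is that of ND-ASHI, the aconitase gene mAcon1 (129.9), and the isocitrate dehydrogenase genes Idh3g (98.4) and Idh3b (70.5). The mAcon1 summit lay 131 bp from its start and closer to that of CG43345, at 90 bp. The Idh3g summit was shared with CG4743, and that of Idh3b had no other start in reach. Idh3b stood lower in replicate 1, with a rank of 6090 and a signal of 18.8, than in replicate 2, with 1497 and 51.8.

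Genes of mitochondrial biogenesis and DNA maintenance had 2 of 12 bound. They were Lon, a protease of the mitochondrial matrix, with 278.8 (124.7 and 160.5 in the replicates), and mtSSB, which binds single-stranded mitochondrial DNA, with 105.4 (46.2 and 62.7). The Lon summit was shared with PIG-F, and that of mtSSB had no other start in reach. The factor genes Ets97D (31.3) and TFAM (19.5) had weak candidates, and srl, the PGC-1 homologue, and ewg had none in the pooled list. The shares bound were 22.2%, 33.3%, 30.8% and 16.7% for the older-named subunits, assembly factors, TCA cycle and biogenesis, beside 11.5% of all genes. They rest on 4 or fewer bound genes each. The lists were also chosen with earlier results of these data known, so an excess over all genes cannot be read from them.

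Among genes of the translation machinery, the mitochondrial ribosome stood near the subunits. Of its 73 genes 59 had a candidate, 80.8% beside 45.5% of all genes, and 11 were bound, 15.1% beside 11.5%. Cytosolic ribosomal protein genes were higher on both counts, with 86 of 92, 93.5%, and 55 bound, 59.8%, beside the same shares of all genes. From the strongest candidates of replicate 1 alone the bound genes were 11 and 62, 15.1% and 67.4%, beside 11.8% of all genes. From those of replicate 2 alone they were 14 and 48, 19.2% and 52.2%, beside 11.5%. No test of the difference between these groups was made.

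**Figure D4:**
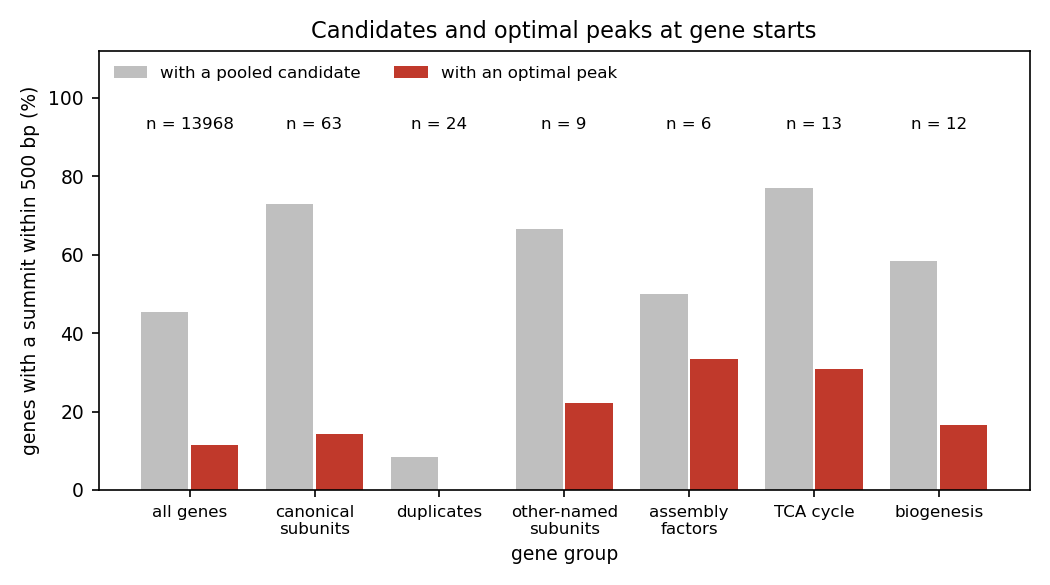
Percent of genes with a pooled candidate (grey) and with an optimal peak (red) within 500 bp of a start, for all protein-coding genes, the canonical subunits, the duplicates and the other lists, with the number of genes above each pair of bars. The canonical subunits stand at 73.0% and 14.3% and all genes at 45.5% and 11.5%.

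The DNA at the subunit promoters was described with a fixed set of elements, searched on both strands. The CARE (TGATGNAAC or TGATGNAAT) lay within 100 bp of the summit at 0 of the 9 bound subunits and at 1 of the 46 with a candidate, ATPsyngamma. Over all bound promoters it occurred at 1.31% of summits, and over all promoter candidates at 1.41%. The CRE (TGACGTCA) and the C/EBP palindrome (TTGCGCAA) occurred at none of the 46, beside 0.442% and 0.241% of all promoter candidates. The NRG element is described as a palindrome in promoters of fly respiratory genes and was searched as TTACGTAA, TTATATAA, TTACATAA or TTATGTAA. Of these forms, TTACATAA and TTATGTAA are reverse complements of each other and not palindromes. The NRG element was at 0 of the 9 bound subunits, beside 3.33% of all bound promoters. Of the 46 candidates it was at 5, 10.9%, beside 2.83% of all promoter candidates. These 5 summits, at ND-SGDH, ND-49, ND-MNLL, ND-B14.5A and ATPsynD, belonged to genes that were not bound. The DRE (TATCGATA), bound by the factor Dref, lay near 1 of the 9 bound summits, that of ATPsynE, beside 7.27% of all bound promoters. It lay near 3 of the 46, 6.52%, beside 6.08% of all promoter candidates. Motif 1 (GGTCACACT), a core promoter element bound by M1BP, lay near 0 of the 9 bound summits, beside 2.71% of all bound promoters. It lay near 2 of the 46, 4.35%, beside 3.19% of all promoter candidates.

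In the promoters themselves, unlike at the summits, Motif 1 was the element with the widest gap to other genes. From 250 bp before to 50 bp after the outermost start it occurred in 14 of the 63 canonical subunits, 22.2%, beside 6.04% of all protein-coding genes and 1 of the 24 duplicates. It was present at 3 of the 9 bound subunits, COX5A, COX5B and ND-MWFE, and at 11 of the 54 that were not bound, so that 33.3% and 20.4% held it. By complex it was found in 7 of 34 subunits of complex I, 4 of 8 of complex IV, 2 of 11 of ATP synthase, 1 of 6 of complex III and 0 of 4 of complex II. The DRE occurred in 9 of the 63 promoters, 14.3%, beside 9.36% of all genes, and the 9 were all at genes that were not bound. The NRG element occurred in 5, 7.94%, beside 5.18% of all genes, and all 5 were of complex I, with ND-42 the bound one among them. Both DRE and NRG were absent from the 24 duplicate promoters. The other elements were rare in the 63 subunit promoters. The CARE occurred in 1, at ND-B14.5B, 1.59% beside 1.82% of all genes, and the C/EBP palindrome in 1, at ATPsynE, beside 0.401%. The E-box (CACGTG) occurred in 2, 3.17% beside 4.23%, while the CRE, the Ets site (CCGGAAGT) and the GAGA element (GAGAGAG) occurred in 0 of the 63, beside 0.437%, 0.379% and 5.86% of all genes. No form searched contains another, and the mean GC content was 34.8% for the subunit promoters and 39.1% for those of all genes.

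To show these elements in place, short stretches follow, on the strand of the named gene in dm6, with the element in capitals and 10 bases on either side, or 11 for the DRE. The Motif 1 stretches are 3R:11819313-11819341 (COX5A), 2L:6557802-6557830 (COX5B), X:19492408-19492436 (ND-18), 2L:15751075-15751103 (ND-B17) and 3L:17425476-17425504 (COX7B), and the DRE stretch is 3R:14327039-14327068 (ATPsynE). In COX5A the element is on the other strand and starts 36 bp before the outermost start. In COX5B and COX7B it starts 12 and 9 bp after it, and in ND-18 and ND-B17 3 and 15 bp before it. The DRE of ATPsynE starts 103 bp after the start.
COX5A: ttgaagatgcAGTGTGACCgcaattaaat
COX5B: actttaccgcGGTCACACTgatccatagc
ND-18: ccgctcgcctGGTCACACTggcactggcg
ND-B17: ttaagagtgcGGTCACACTggcggcaaca
COX7B: acaacacaacGGTCACACTgttcaacaca
ATPsynE: accaatacaacTATCGATAgccgcctgtca

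**Figure D5:**
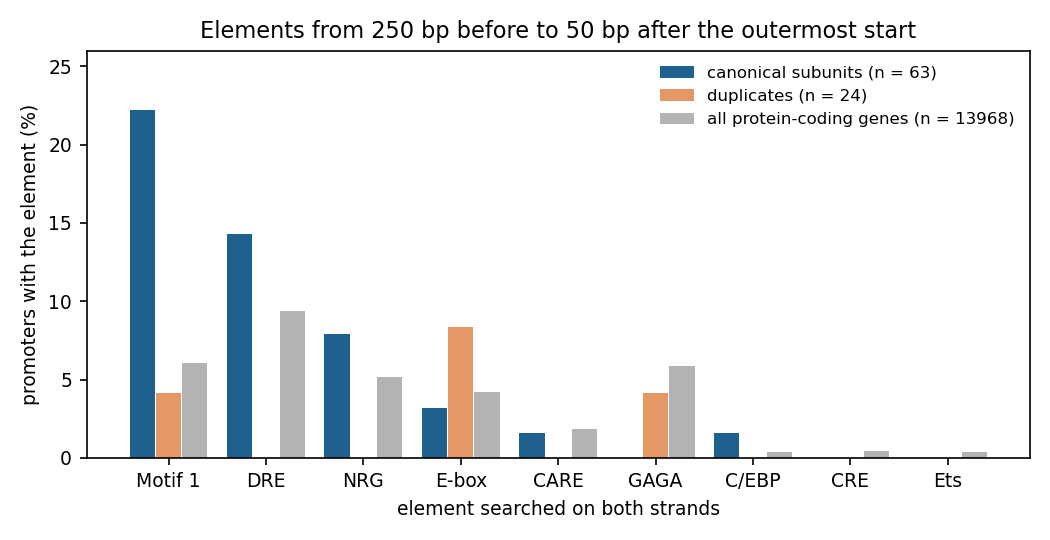
Percent of promoters that hold each element at least once on either strand, for the 63 canonical subunits, the 24 duplicates and all 13968 protein-coding genes. Motif 1 has the widest gap, with 22.2% of the subunits against 6.04% of all genes.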

How the data were processed

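ChIP-seq peak lists of Crc-eGFP embryos, 2 biological replicates of 1 group, were analysed as deposited. Chromatin was sonicated to 200 to 800 bp, per the labels. Candidate lists, called against a control file for each replicate and for the pooled reads, and the optimal list derived from them are described by the deposited file listings; no source used here names the aligner, the caller or the depth of sequencing. The deposited signal value of each peak is the authors' score with no stated normalization, so it was read within a list, and lists were set side by side by rank. The replicate lists end at 30000 regions, so weak candidates may be missing. With 1 group no condition was compared and no p-value was computed.

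Summits in dm6, 1-based, were matched within 500 bp to every transcript start of BDGP6.54 (Ensembl release 115), and the sequences are from the RefSeq copy of Release 6. The matching was tested on simulated peaks. Members, lists and elements were chosen with earlier results of these data known. Genes were named by a fixed rule: the strongest bound members, those around the lowest optimal signal, complexes II and III in full, the largest rank differences, missing candidates and the strongest of each list. The split by paired starts, the core subunits, the ribosomal groups, the printed Motif 1 stretches and further weak candidates were chosen after their values were seen. The listed symbols Ecsit and skap were not matched and are not analysed here. The lists in dm3 were not used, since no annotation of that build was at hand. Python 3.11.15, numpy 2.4.6, pandas 2.3.3 and matplotlib 3.10.9 were used.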

Additional observations from a re-analysis of the deposited data

How the results depend on the processing

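Counts of bound genes depended most on how shared summits were assigned. When each summit counted only for the gene with the nearest start, 5 members and 5 canonical subunits were bound in place of 9, with 3 of complex I in place of 5 and 1 of complex IV in place of 3, beside 8.49% of all genes in place of 11.5%. At a distance limit of 200 bp complex I had 3 bound, beside 7.88% of all genes, and at 1 kb complex II had 1, beside 13.5%. Among optimal peaks above their median signal ATP synthase had 0 in place of 1, beside 6.35% of all genes. Without replicate 1 there were 9 bound members, beside 11.5% of all genes, and without replicate 2 there were 11, beside 11.8%. For canonical subunits the counts were the same. For complex I the counts were 5 and 7, while complex IV kept a count of 3 and ATP synthase a count of 1. Canonical subunits with a candidate were 52 without replicate 1, beside 51.5% of all genes, and 41 without replicate 2, beside 44.5%. Their median pooled signal of 35.1 was 33.4 at 200 bp, 31.1 with the nearest gene only and 36.3 with the outermost start only, while over all genes it was 38.4, 35.2 and 36.5. With a window of 200 bp in place of 100 bp, 1 bound member had an NRG element near its summit in place of 0. Duplicates had 0 bound genes under each alternative run. No paired analysis was possible because the study has 1 group.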
